A study of Mus musculus with 21 samples.

Results

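The cytosolic heat shock chaperones described here are 10 genes of the hippocampus, chosen by name from the 55487 genes listed in the counts table: Hsp90aa1 and Hsp90ab1 (HSP90), Hspa8, Hspa1a and Hspa1b (HSP70), Hspa4 and Hsph1 (HSP110 relatives of HSP70), Dnajb1 (an HSP40), Hspb1 (a small heat shock protein) and the transcription factor Hsf1. All 10 were measured in every library and passed the filter on low counts. Poly-A RNA was sequenced from the hippocampus of wild type C57BL/6 male mice of 10 weeks, with 1 library per mouse. Maternally separated mice (MS, 9 libraries) had been parted from the dam for 4 hours a day from postnatal day 10 to day 17, and control mice with standard rearing (SR, 12 libraries) had not. Separated nests were warmed in part by a heating pad and returned to home cages with less nesting material, so that separation, warming and bedding cannot be told apart as treatments. Whole nests were assigned to a condition and litter mates shared a cage after weaning, so mice of a nest are not fully independent. The labels name no nest, and each mouse is called here by a letter and a digit. A letter stands for 3 animals numbered in a row (7 sets), with A, B and C holding MS mice and the rest SR mice.

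Cytosolic chaperones keep new and damaged proteins from clumping and help them to fold. HSP70 proteins bind exposed stretches of a client, HSP40 proteins such as DNAJB1 deliver clients and stimulate the ATPase of HSP70, HSP110 proteins exchange its nucleotide, small heat shock proteins hold unfolded proteins, and HSP90 finishes clients such as kinases and the glucocorticoid receptor. HSF1 binds heat shock elements, inverted repeats of the letters GAA and TTC, upstream of the stress-inducible genes of the family, while the endoplasmic reticulum (ER) has its own set of chaperones under the unfolded protein response.

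The sequence letters of a paired heat shock element, GAANNTTC or TTCNNGAA, were searched on both strands in the 250 bases before the start sites that RefSeq gives on GRCm38.p6. These windows are shown because they mark which members carry a paired form of the HSF1 recognition letters in this stretch. Windows were given for 6 of the 10 members. Hspb1 held 2 such pairs, which began 117 and 97 bases upstream of the start. Hspa1a and Hspa1b held 1 each at the same place, 104 bases upstream. Hsph1 held 1 at 33 or 54 bases upstream of its 2 RefSeq starts. In GENCODE, however, Hsph1 (minus strand) reaches to 149636376, so this match lies inside the annotated gene and not before it. Neither Dnajb1 nor Hspa4 held a pair. A window of Dnajb1, chr8:83608298-83608547, also lies inside the annotated gene. Of 32851 windows of the same length, 4218 (12.8%) held either form. A longer form, in which 1 more repeat follows the first pair, was searched as well. None of the windows given for the members held this longer form. Of the 32851 windows, 153 (0.466%) did. A match of letters is a description and does not show that HSF1 binds there. Capitals mark the paired elements below, and each sequence runs 5′ to 3′ on the strand of the gene.
Hspb1, chr5:135887669-135887918, plus strand: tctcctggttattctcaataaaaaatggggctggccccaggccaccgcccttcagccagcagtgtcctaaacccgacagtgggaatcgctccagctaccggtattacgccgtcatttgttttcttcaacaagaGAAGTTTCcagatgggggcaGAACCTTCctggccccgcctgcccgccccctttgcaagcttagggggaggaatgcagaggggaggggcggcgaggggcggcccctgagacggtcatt
Hspa1a, chr17:34972157-34972406, minus strand: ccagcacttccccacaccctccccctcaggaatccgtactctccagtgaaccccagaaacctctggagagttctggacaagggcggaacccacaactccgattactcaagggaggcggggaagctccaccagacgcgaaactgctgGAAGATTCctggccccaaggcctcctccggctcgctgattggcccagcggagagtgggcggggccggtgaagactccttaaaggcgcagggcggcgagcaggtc
Hspa1b, chr17:34959239-34959488, minus strand: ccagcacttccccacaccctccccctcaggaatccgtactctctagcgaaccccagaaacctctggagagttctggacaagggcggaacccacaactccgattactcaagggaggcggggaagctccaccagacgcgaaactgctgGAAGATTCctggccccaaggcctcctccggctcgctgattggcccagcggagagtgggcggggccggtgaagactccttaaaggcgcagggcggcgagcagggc
Hsph1, the 28 bases around its element, chr5:149636352-149636379, minus strand: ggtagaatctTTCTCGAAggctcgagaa

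The windows of Hspa1a and Hspa1b differed at 3 of 250 bases. Their transcripts (2967 and 2803 bases) were 99.2% identical over 2201 aligned bases, with 12 mismatches and an identical run of 638 bases. Reads of these neighbouring genes could therefore have been divided between them or dropped in counting, and their separate values are uncertain. The summed counts are given beside them.

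Among the libraries, the MS library A2 stood apart. On the first principal component of the 500 most variable genes it scored 27.1, and the other 20 libraries lay between -12.2 and 11.9. Its 6 markers of hippocampal neurons summed to 79.5 CPM (counts scaled to a fixed, normalized library total), where the other libraries had 341 to 761, and its 6 markers of striatal neurons to 1298 CPM, where the others had 38.9 to 431. An outlier was removed in the study as well, without being named. The comparison without A2 holds 8 MS and 12 SR mice, and member results are also given with A2. In A2 the 4 genes Hsp90aa1, Hsp90ab1, Hspa8 and Hspa4 were at their lowest of all 21 libraries, while Hspa1a, Hspa1b, Dnajb1 and Hspb1 lay within the range of the other MS mice. Total counts were 17276810 to 30449055 in MS and 18368519 to 26450808 in SR. The lowest count of any member in any library was 107, for Hspb1.

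In bulk tissue, fewer cells of a type and less RNA per cell cannot be told apart. Per length of exon, Hsp90ab1, Hspa8 and Hsp90aa1 stood above the other 7 genes. Mean levels in the 12 SR mice, in CPM per kilobase of exon, were 598 ± 26.4 (SD) for Hsp90ab1, 375 ± 13.9 for Hspa8 and 257 ± 9.43 for Hsp90aa1. The next step down held Hspa4 with 42.1 ± 1.97 and Hsph1 with 41.4 ± 2.39. Below them came Dnajb1 with 16.5 ± 2.04, Hspa1b with 15.4 ± 3.40, Hspa1a with 11.7 ± 2.87, Hsf1 with 7.63 ± 0.281 and Hspb1 with 7.47 ± 2.34. Neighbours in this order whose SR ranges overlapped were Hspa4 and Hsph1, Dnajb1 and Hspa1b, Hspa1b and Hspa1a, and Hsf1 and Hspb1. The other neighbours did not overlap. This order depends on the divisor, the union of all annotated exons (7099 bases for Hsf1 and 1031 for Hspb1). Undivided, SR means were 54.2 CPM for Hsf1 and 52.8 CPM for Dnajb1. Relative spread between mice was largest for Hspb1, Hspa1b, Hspa1a and Dnajb1. The coefficient of variation over the 20 mice was 30.6% for Hspb1, 23.0% for Hspa1b, 22.9% for Hspa1a and 14.7% for Dnajb1, against 4.66% to 8.38% for the other 6 genes.

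Separated mice had higher mean levels of all 10 genes, from 1.00-fold for Hsf1 to 1.46-fold for Hspb1, but none passed the test after correction and the groups overlapped for every one (of all genes tested, 2, or 0.011%, did not overlap). The sign changed under other settings for Hsf1, Hsp90ab1 and Hspa4. By edgeR's quasi-likelihood test with Benjamini-Hochberg adjustment, 0 of 10 members were called, where 2 of 18146 genes tested were called over the whole table (0.011%). Before adjustment, 6 of 10 members were higher in MS at p under 0.05 (Hspb1, Hspa1b, Dnajb1, Hsph1, Hspa8 and Hsp90aa1) and 0 lower, where 6.62% of all genes were higher and 4.92% lower. The median log2 fold change of the members was 0.14, and 50.3% of all genes had one above 0. DESeq2's Wald test called 1 member, Hsph1, where it called 84 of 14276 genes (0.588%) as higher. Hsph1 is in the study's own list of changed genes, which was drawn from these mice, so its call is not independent evidence. With A2 included, the unadjusted count was 4 and no member was called.

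**Figure D1:**
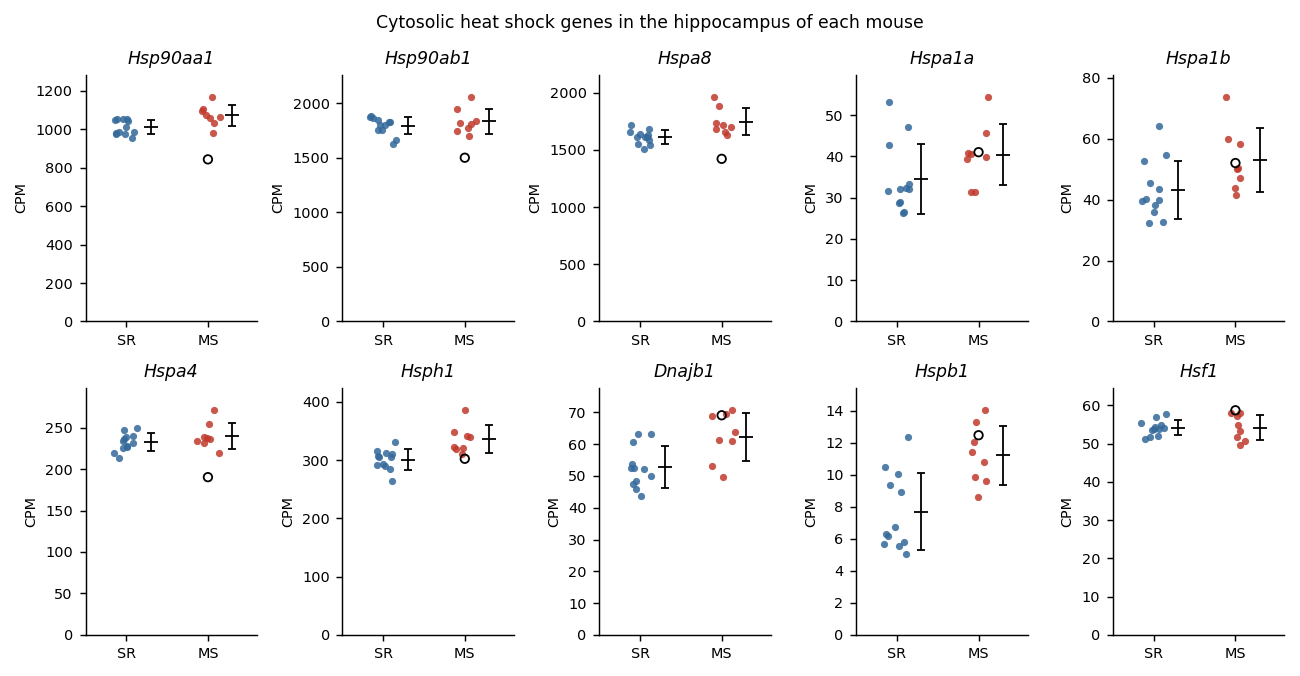
CPM of each gene (vertical axis from 0) in each SR mouse (blue) and MS mouse (red), with the group mean and SD as a bar beside the points and the MS library A2 as an open circle. Groups overlap in all 10 panels, and the shift is largest for Hspb1, whose MS mean was 11.2 CPM against 7.70 in SR.

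The small heat shock gene Hspb1 (chromosome 5, 135887919 to 135889563) showed the largest fold. It was at 8.58, 11.1 and 14.0 CPM in the lowest, median and highest MS mouse and at 5.03, 6.51 and 12.4 CPM in SR. All 8 MS mice were above the SR median, and 7 of 12 SR mice were below every MS mouse. The SR mice themselves fell into a lower stretch of 7 mice at 5.03 to 6.74 CPM and a higher one of 5 mice, G3, G2, E3, D1 and E2, at 8.93 to 12.4 CPM, which overlapped the MS range. The log2 fold change was 0.54 (SE 0.16, edgeR adjusted p = 0.189), and DESeq2 gave an adjusted p of 0.0515. With A2 the log2 fold change was 0.56.

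The inducible HSP70 genes Hspa1a and Hspa1b lie near each other on chromosome 17 (34969190 to 34972156 and 34956436 to 34959238, minus strand). Hspa1b was at 41.7, 50.2 and 73.7 CPM in the lowest, median and highest MS mouse and at 32.2, 40.1 and 64.1 CPM in SR. For Hspa1a these values were 31.3, 40.3 and 54.4 CPM in MS and 26.2, 32.2 and 53.2 CPM in SR. The groups overlapped for both genes, and the highest mouse of each group was the same for both, C3 in MS and E3 in SR. Log2 fold changes were 0.30 (SE 0.13, edgeR adjusted p = 0.375) for Hspa1b and 0.23 (SE 0.13, edgeR adjusted p = 0.541) for Hspa1a. With the counts of the pair summed, the log2 fold change was 0.27 (SE 0.13, edgeR adjusted p = 0.449). With A2 the values were 0.29 and 0.23.

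Dnajb1 (chromosome 8, 83608193 to 83612653), the HSP40 partner of these genes, was at 49.7, 62.6 and 70.7 CPM in the lowest, median and highest MS mouse. SR mice had 43.6, 52.4 and 63.3 CPM. Of the 8 MS mice, 4 were above every SR mouse and 7 above the SR median. The others, C2, C1, B2 and A3, at 49.7, 53.2, 61.2 and 61.2 CPM, lay among the SR values. The log2 fold change was 0.24 (SE 0.08, edgeR adjusted p = 0.226). Without the 3 MS mice of set C it was 0.30 with an edgeR adjusted p of 0.0498, in a fit that called 340 of 18561 genes (1.83%). With A2 it was 0.26.

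Hsph1 (chromosome 5, 149614287 to 149636376), an HSP110 nucleotide exchange factor, had the smallest p of the members. Its levels were 311, 331 and 385 CPM in the lowest, median and highest MS mouse and 263, 305 and 331 CPM in SR. All 8 MS mice were above the SR median and 9 of 12 SR mice were below every MS mouse, yet the groups overlapped because D1 in SR reached 331 CPM. The log2 fold change was 0.16 (SE 0.04, edgeR adjusted p = 0.148, DESeq2 adjusted p = 0.0328). With A2 it was 0.14. Its relative Hspa4 (chromosome 11, 53259814 to 53300457) was at 219, 237 and 271 CPM in MS and 213, 233 and 250 CPM in SR. That difference, a log2 fold change of 0.05 (SE 0.04, edgeR adjusted p = 0.667), was smaller than the spread between mice, and was 0.01 with A2.

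Hspa8 (chromosome 9, 40800984 to 40810087), the constitutive HSP70, was at 1629, 1710 and 1964 CPM in the lowest, median and highest MS mouse and at 1508, 1616 and 1716 CPM in SR. All 8 MS mice were above the SR median and 4 were above every SR mouse. The log2 fold change was 0.11 (SE 0.04, edgeR adjusted p = 0.246), and 0.08 with A2. The HSP90 gene Hsp90aa1 (chromosome 12, 110690605 to 110702728), the form that stress induces more, was at 981, 1069 and 1169 CPM in MS and 953, 999 and 1054 CPM in SR. There 6 of 8 MS mice were above every SR mouse, while C2, at 981 CPM, was below the SR median, and the log2 fold change was 0.09 (SE 0.03, edgeR adjusted p = 0.342). With A2 it was 0.05. The constitutive Hsp90ab1 (chromosome 17, 45567775 to 45573271) was at 1704, 1816 and 2058 CPM in MS and 1631, 1813 and 1881 CPM in SR, so that the medians almost coincided. Its log2 fold change of 0.03 (SE 0.04, edgeR adjusted p = 0.788) was 0.00 with A2 and -0.02 without set C.

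Hsf1 (chromosome 15, 76477422 to 76501913), whose protein drives the heat shock response, did not differ detectably in mRNA. It was at 49.7, 54.1 and 58.1 CPM in the lowest, median and highest MS mouse and at 51.3, 54.0 and 57.8 CPM in SR. The log2 fold change was 0.00 (SE 0.04, edgeR adjusted p = 0.994), and 0.02 with A2. The mRNA level of a factor says nothing of its activity, which was not measured. The other listed heat shock factor genes were near 0 as well, with log2 fold changes of -0.02 (SE 0.13) for Hsf4 and 0.01 for Hsf2. So was Hsbp1, whose protein binds HSF1, at 0.03 (SE 0.04).

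**Figure D2:**
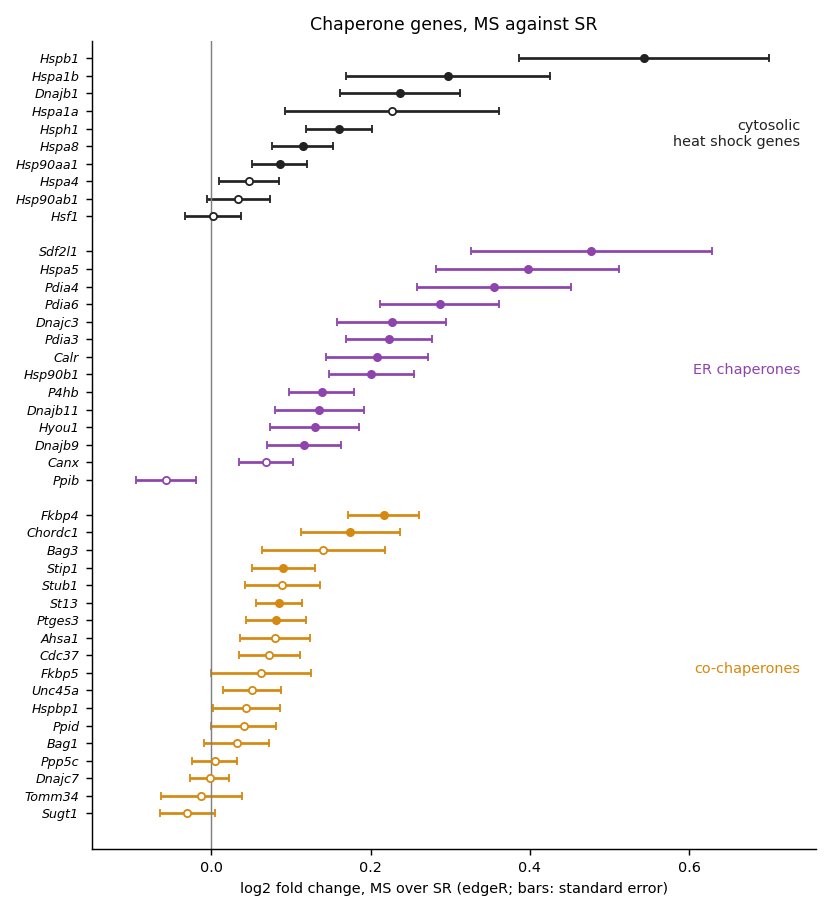
Log2 fold change of MS over SR (horizontal axis) with its standard error for the 10 cytosolic heat shock genes, 14 ER chaperones and 18 co-chaperones, with filled points where the unadjusted edgeR p was under 0.05. No point passed after adjustment, and 10 of 10, 13 of 14 and 15 of 18 genes lie above 0, with Hsf1 at 0.00. Hsf1, Hsp90ab1 and Hspa4 turned below 0 under other settings.

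The partners of these chaperones had smaller differences, mostly in the same direction. Of 18 co-chaperones of HSP90 and HSP70, 15 were higher in MS and 0 were called by edgeR, with a median log2 fold change of 0.07, and 5 had an unadjusted p under 0.05, all higher. Fkbp4, an immunophilin of the HSP90 complex that also carries the glucocorticoid receptor, had the smallest p of any listed chaperone gene, with a log2 fold change of 0.22 (SE 0.04, edgeR adjusted p = 0.111). DESeq2 called it (adjusted p = 0.00832), and edgeR called it without set C (adjusted p = 0.0212), without C2 (adjusted p = 0.0307) and without C3 (adjusted p = 0.0450). It is also in the study's list from these mice. St13, which binds HSP70, was at 0.09 (SE 0.03, edgeR adjusted p = 0.261). Of 19 other cytosolic HSP70, HSP40 and small heat shock genes, 17 passed the filter, and 14 of these were higher, with a median of 0.04. The HSP40 genes Dnaja4, at 0.15 (SE 0.05, edgeR adjusted p = 0.240), and Dnajb2, at 0.15 (SE 0.05, edgeR adjusted p = 0.289), had their smallest p-values. In the TRiC chaperonin, the ring that folds actin and tubulin, 7 of 8 subunits were higher with a median of 0.09, and Cct4, at 0.14 (SE 0.04, edgeR adjusted p = 0.161), and Cct7, at 0.11 (SE 0.04, edgeR adjusted p = 0.276), led. At an unadjusted edgeR p under 0.05, 5 of the 17 other cytosolic genes and 4 of the 8 TRiC subunits were higher too. In these lists no gene was lower in MS at that threshold. Over all genes, 6.62% were higher and 4.92% lower, so few lower genes would be looked for in lists this short.

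ER chaperones had a median log2 fold change of 0.20 against 0.14 for the cytosolic genes, a difference that was not tested. Of 14, 13 were higher in MS and Ppib was lower (log2 fold change -0.06). At an unadjusted p under 0.05 there were 12, all higher, where 6.62% of all genes were higher. By edgeR 0 were called, while DESeq2 called 5. Over all genes, DESeq2 called 84 of 14276 (0.588%) as higher. The HSP70 of the ER, Hspa5, was at 0.40 (SE 0.11, edgeR adjusted p = 0.191) and its HSP90, Hsp90b1, at 0.20 (SE 0.05, edgeR adjusted p = 0.159). The disulphide isomerases Pdia3, at 0.22 (SE 0.05, edgeR adjusted p = 0.131), and Pdia6, at 0.29 (SE 0.07, edgeR adjusted p = 0.151), had the smallest p-values. Hspa5, Hsp90b1, Pdia3, Pdia4 and Pdia6 are in the study's list from these mice, so these counts are not independent evidence.

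To set both compartments side by side in each mouse, a score was taken as the mean over a list of log2 CPM relative to the SR mean of each gene. The cytosolic score was 0.18 ± 0.09 (SD, n = 8) in MS, with a range of 0.03 to 0.34. In SR it was 0.00 ± 0.12 (n = 12), with a range of -0.17 to 0.20. All 8 MS mice were above the SR median and 3 were above every SR mouse. The ER score was 0.21 ± 0.13 in MS, from 0.05 to 0.45, and 0.00 ± 0.13 in SR, from -0.16 to 0.25. The ER score minus the cytosolic score was 0.03 ± 0.06 in MS and 0.00 ± 0.13 in SR, so the mean difference of 0.03 was smaller than the SD of either group. These scores are descriptions without a test. The cytosolic score is a mean of unlike genes. Hspb1, Hspa1b, Dnajb1 and Hspa1a had log2 fold changes of 0.54, 0.30, 0.24 and 0.23, and the other members 0.00 to 0.16. Without Hspa1a and Hspa1b the ER score exceeded the cytosolic one by 0.05 in MS relative to SR. With A2, whose cytosolic and ER scores were 0.09 and -0.02, it did so by 0.01.

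**Figure D3:**
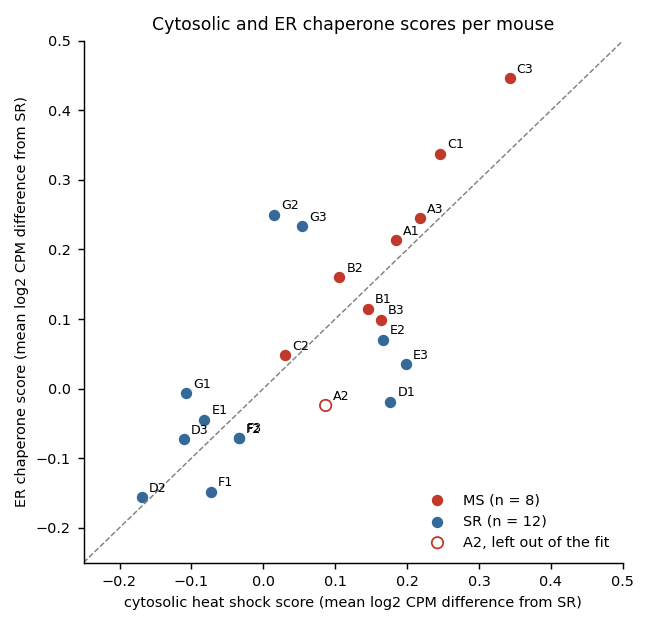
Cytosolic heat shock score (horizontal axis) against ER chaperone score (vertical axis), both as mean log2 CPM difference from the SR mean, for each mouse, with the line of equal scores. The ER score minus the cytosolic score ran from -0.06 to 0.10 in MS mice, with C3 highest at 0.34 and 0.45. In SR mice it ran from -0.20 to 0.23. Of the SR mice, D1, E2 and E3 lay farthest to the cytosolic side, and G2 and G3 to the ER side. E2 (-0.10) and G1 (0.10) were no farther from the line than C3 (0.10).

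The SR mice farthest from that line on each side differed in which genes were high. D1, E2 and E3 had cytosolic scores of 0.18, 0.17 and 0.20 with ER scores of -0.02, 0.07 and 0.04. G2 and G3 had ER scores of 0.25 and 0.23 with cytosolic scores of 0.02 and 0.05. For Hspa1a, Hspa1b and Dnajb1, D1, E2 and E3 were the 3 highest SR mice, and for Hspb1 they were too. Hspa1a was at 42.7, 47.3 and 53.2 CPM in D1, E2 and E3, where the other 9 SR mice had 26.2 to 33.2 CPM. By contrast, E2 was the lowest SR mouse for Hsp90ab1 (1631 CPM) and among the 3 lowest for Hspa8 (1555 CPM) and Hspa4 (219 CPM).

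**Figure D4:**
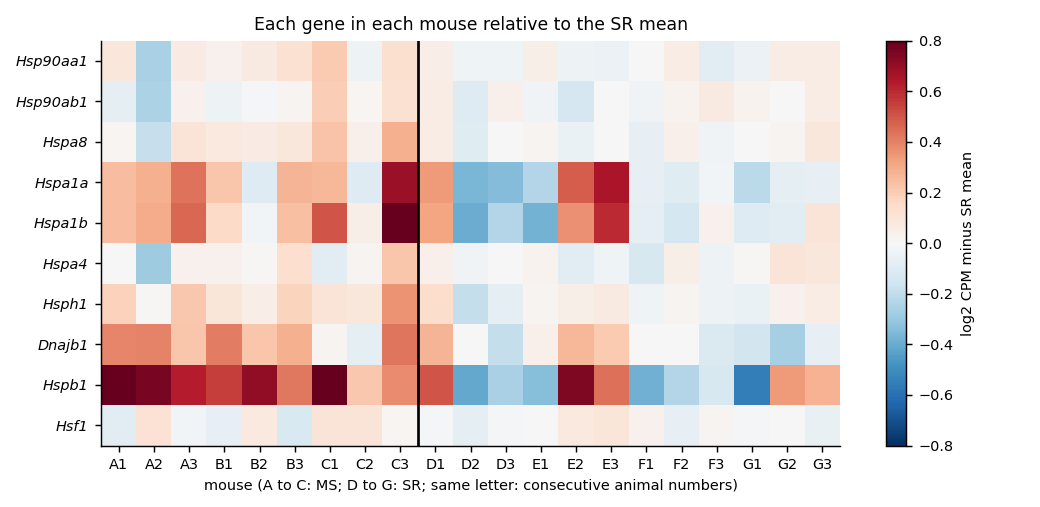
Log2 CPM minus the SR mean for each of the 10 genes (rows) in each mouse (columns, MS left of the line and SR right of it). Hspa1a, Hspa1b, Dnajb1 and Hspb1 are high together in the SR mice D1, E2 and E3, and Hsp90aa1, Hsp90ab1, Hspa8 and Hspa4 are low in A2.

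Over the 20 mice, 7 of 10 genes followed the ER score with an adjusted p under 0.05 by Pearson's r and 6 by Spearman's rho, which Hspa4 did not pass (two-sided permutation tests with 100000 resamples, 10 relations by each measure). Pearson's r was highest for Hspa8, at 0.82 (rho 0.75, permutation adjusted p = 0.00020 and 0.00165), and Hsph1, at 0.77 (rho 0.74, permutation adjusted p = 0.00020 and 0.00165). For Hspb1 r was 0.72 (rho 0.69), for Hsp90aa1 0.71 (rho 0.67), for Hspa1b 0.68 (rho 0.65), for Hspa1a 0.56 (rho 0.52) and for Hspa4 0.51 (rho 0.41), with permutation adjusted p-values for r of 0.00107, 0.00107, 0.00192, 0.0178 and 0.0279 in that order. The permutation adjusted p for the rho of Hspa4 was 0.103. Hsp90ab1, at 0.45 (rho 0.26, permutation adjusted p for r = 0.0598), Dnajb1, at 0.37 (rho 0.37, permutation adjusted p = 0.121), and Hsf1, at 0.11 (rho 0.12, permutation adjusted p = 0.640), did not pass. The share of all genes that follow the ER score was not computed, so 7 of 10 has no background beside it. Library factors such as tissue content can move many genes together, and their part was not tested.

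With the condition means subtracted, 5 genes passed: Hspa8 (r = 0.70, permutation adjusted p = 0.00730), Hsph1 (0.60, permutation adjusted p = 0.0252), Hspa1b (0.56, permutation adjusted p = 0.0326), Hsp90aa1 (0.54, permutation adjusted p = 0.0326) and Hspb1 (0.53, permutation adjusted p = 0.0328). Hspa1a and Hspa4, at r of 0.45 and 0.44, no longer passed by this measure. By Spearman's rho, Hspa1a did pass (0.52, permutation adjusted p = 0.0408), while Hsp90aa1 did not (0.48, permutation adjusted p = 0.0595). Within the 12 SR mice none passed, with r from -0.16 for Dnajb1 to 0.63 for Hspb1. Within the 8 MS mice 2 passed for r by the exact permutation test, Hspa1b (r = 0.90, adjusted p = 0.0278) and Hspa8 (r = 0.85, adjusted p = 0.0469). By rho none passed within MS, with a lowest exact permutation adjusted p of 0.154, for Hspa1b. Without the 2 mice farthest from the median ER score, r was 0.66 for Hspa8, 0.70 for Hsph1 and 0.76 for Hspb1, all still past the threshold. For Hspa1a and Hspa1b it was 0.41 and 0.50, which were not. By rho, Hspa1b did pass there (0.54, permutation adjusted p = 0.0438).

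Animal numbers fell into a low range (sets A, B, D, E and F) and a high range (C and G), and the relation was recomputed within each with both conditions pooled. For Dnajb1, r was 0.77 in the 14 mice of the low range (permutation adjusted p = 0.00553) and 0.67 in the 6 mice of the high range (exact permutation adjusted p = 0.190), although the pooled r was 0.37. For Hspb1 these values were 0.89 and 0.74, for Hsph1 0.83 and 0.77, for Hspa8 0.67 and 0.86, and for Hsp90ab1 -0.06 and 0.68. No gene passed in the high range alone. The MS effect itself was also compared between the ranges by an interaction term in edgeR. Its log2 fold change for Hspa1b was 0.18 in the low and 0.50 in the high range, for Hspa1a 0.15 and 0.43, and for Hsf1 -0.05 and 0.09. No member's difference between ranges passed (lowest edgeR adjusted p = 0.585, for Hsf1), and over the 18146 genes there were 0 calls by edgeR and 1573 genes at p under 0.05 before adjustment.

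Among themselves, the 10 genes formed 45 pairs. After subtracting condition means, 38 had a positive correlation over the 20 mice and 9 passed after adjustment. These counts have no share over pairs of other genes beside them. The part of library factors that move many genes together was not tested. Hspa1a and Hspa1b went together most closely (r = 0.95, permutation adjusted p = 0.00045, with an unadjusted p of 1e-05, the smallest these resamples can give). The part of shared reads in it was not tested. Hspa1a also went with Hsph1 (0.76, permutation adjusted p = 0.00090), Dnajb1 (0.69, permutation adjusted p = 0.00639) and Hspb1 (0.63, permutation adjusted p = 0.0156). Hspa1b went with Hsph1 (0.75, permutation adjusted p = 0.00135) and Hspb1 (0.61, permutation adjusted p = 0.0193). The remaining 3 pairs joined Hspa8 to Hsp90ab1 (0.81, permutation adjusted p = 0.00045), Hsp90aa1 (0.66, permutation adjusted p = 0.0103) and Hsph1 (0.62, permutation adjusted p = 0.0193). Hsph1 passed with Hspa1a, Hspa1b and Hspa8, whereas Hspa8 with Dnajb1, at 0.01, and Hsp90ab1 with Dnajb1, at -0.36, did not pass. No pair with Hsf1 passed over these 20 mice. Within SR, Hspa1a with Hsf1 did (0.74, permutation adjusted p = 0.0409), and Hspa4 with Hsf1 did with all 21 libraries (-0.53, permutation adjusted p = 0.0325) and without the 2 mice farthest from the median of Hspa4 (-0.58, permutation adjusted p = 0.0363). Pairs that passed numbered 11 within SR, 2 within MS, 9 in the low range of animal numbers and 0 in the high range. Without set E, the pairs of Hspb1 with Hspa1a (0.41) and with Hspa1b (0.41) no longer passed. There 5 other pairs passed that had not before: Hspa8 with Hspa1b (0.79, permutation adjusted p = 0.00162) and Hspa1a (0.63, permutation adjusted p = 0.0329), Hsp90ab1 with Hspa1b (0.70, permutation adjusted p = 0.0152), Hspa4 with Hsph1 (0.66, permutation adjusted p = 0.0230) and Hsp90aa1 with Hspb1 (0.60, permutation adjusted p = 0.0425). The groups of linked genes thus changed when set E was left out. No other single set was left out for the pairs, so a dependence on set E in particular was not tested.

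**Figure D5:**
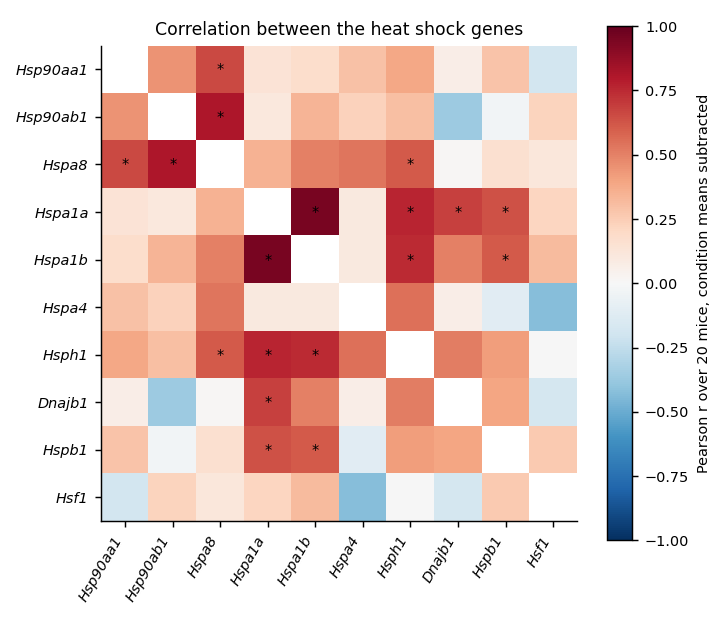
Pearson's r (colour) between each pair of the 10 genes over 20 mice after subtracting the condition means, with an asterisk where the adjusted permutation p was under 0.05. Asterisks join Hspa1a to Hspa1b, Hsph1, Dnajb1 and Hspb1, Hspa1b also to Hsph1 and Hspb1, and Hspa8 to Hsp90aa1, Hsp90ab1 and Hsph1. Without set E, Hspa8 also passed with Hspa1a and Hspa1b.

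Outside all lists, the genes whose pattern over the 20 mice, with condition means subtracted, was most like the mean z-score of the 10 members were P4ha1 (r = 0.81), Herpud1 (0.74), Plod1 (0.72), Derl2 (0.72) and Gm8172 (0.72). P4ha1 encodes a collagen prolyl hydroxylase, and Herpud1 and Derl2 encode parts of the ER degradation machinery. Most like Hspa1a alone were Gm20219 (0.81), Tbx6 (0.81), P4ha1 (0.78), Ahsa2 (0.75) and Slc15a4 (0.72). These are the highest of all genes that passed the filter and carry no test. None of them was called in MS against SR.

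Markers of hippocampal neurons and of other cell types were measured beside these results. Hippocampal neuron markers (6 genes) summed to 341 to 717 CPM in MS and 342 to 761 CPM in SR. Of these, 5 were lower in MS, with a median log2 fold change of -0.08 and none at an unadjusted edgeR p under 0.05. Choroid plexus markers (5 genes) summed to 51.6, 3271 and 4141 CPM in the lowest, median and highest MS mouse and to 27.6, 825 and 4465 CPM in SR, and all 5 were higher in MS with none at an unadjusted p under 0.05. With their score as a term, the log2 fold change of Hspb1 was 0.48 (SE 0.17, edgeR adjusted p = 0.437) and that of Hsph1 0.16 (SE 0.05, edgeR adjusted p = 0.320). Vascular markers (6 genes) summed to 125 to 158 CPM in MS and 110 to 172 CPM in SR. With the vascular score as a term Hspb1 was at 0.46 (SE 0.12, edgeR adjusted p = 0.203). Astrocyte markers (5 genes) summed to 1098 to 1384 CPM in MS and 1162 to 1285 CPM in SR. Striatal neuron markers (6 genes) summed to 38.9 to 431 CPM in MS and 42.5 to 269.7 CPM in SR. All 6 were higher in MS, with a median log2 fold change of 0.55 and none at an unadjusted edgeR p under 0.05. Immediate early genes (10), which respond to handling and activity, summed to 403 to 997 CPM in MS and 297 to 948 CPM in SR, and none had an unadjusted p under 0.05. No marker was at 0 in every library. The part of other cell types in the members' differences was not tested beyond these terms.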

How the data were processed

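Hippocampal poly-A libraries of 21 mice were grouped by the treatment given in the labels. The authors aligned paired-end reads to GRCm38 with STAR (2.7.3a), counted genes with FeatureCounts and deposited raw counts, neither normalized nor filtered. Strand setting and treatment of reads with several matches were not given in the sources used here. Columns that belong to no sample numbered 0. After TMM scaling, genes kept by filterByExpr at a minimum count of 10 were tested with the quasi-likelihood test of edgeR 4.0.16 (robust; threshold 0.05, R 4.3.3). DESeq2 1.42.0, limma 3.58.1 (voom) and other samples, filters and terms were alternatives. An SE is the size of a log2 fold change over the root of its F statistic. CPM and log2 CPM (prior count 2) use TMM totals. Symbols and positions are from GENCODE M21. Exon length is the union of a gene's exons. The scripts were tested on simulated data. Members, lists and the left-out library were chosen with earlier results of these data known, and pair correlations and the cell type terms were added after seeing the data. All members were named, as were the 5 genes most like each pattern. For each chaperone list, the genes called or otherwise the 2 of smallest p were named. Hspa5, Hsp90b1 and Hsf2 were named as well. Mice may share nests, so p-values may be too small.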

Additional observations from a re-analysis of the deposited data

Results flagged for a closer look

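Dixon's test of the farthest MS mouse, run on log2 CPM of the 10 cytosolic genes and 14 ER chaperones and on 3 scores over the 8 MS mice (critical value 0.526), marked 2 ER genes and no cytosolic one. In both it was mouse C3, with 190 CPM of Hyou1 and 348 CPM of Canx, above the other MS mice. Chance marks about 1 group in 20 (0.05), so 2 of 27 is near that. C3 was also the highest MS mouse for Hspa8, Hspa1a, Hspa1b, Hspa4, Hsph1 and Dnajb1. The cause was not tested.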

How the results depend on the processing

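No paired analysis was possible because the labels give no replicate numbers that conditions share. Of 409 log2 fold changes of the 10 members under the 41 alternatives, 2 passed the threshold and 23 changed sign. Members called numbered 1 with DESeq2 (Hsph1), 1 without set C (Dnajb1) and 0 with each mouse left out, and their median log2 fold change stayed between 0.11 and 0.16. Members at an unadjusted p under 0.05 numbered 3 in the high animal-number range alone and 5 to 7 with each mouse left out. Hsf1 had a log2 fold change of -0.0074 without the filter on low counts, -0.0041 with the range as a term, -0.051 in the low range, -0.00014 with the set as a random block, -0.0014 with counts summed within sets, -0.011 with the transcript length trend and -0.020 with the vascular score as terms. It was -0.044, -0.013, -0.0023 and -0.0091 without sets C, D, F and G, and -0.014 to 0.016 with each mouse left out. Hsp90ab1 was at -0.0059 in the low range and -0.016 without set C, and Hspa4 at -0.0069 in the high range. Hsf4 was at 0.052 with all 21 libraries, 0.0033 with the range as a term, 0.044 in the high range, 0.013 with the choroid plexus score, 0.040 without set C, 0.080 without set E, and -0.12 to 0.053 with each mouse left out.

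ER chaperones called numbered 5 with DESeq2, 7 in the low range and 0 to 2 with each mouse left out (2 without C2). Those at an unadjusted p under 0.05 numbered 0 in the high range. Over all genes, DESeq2 called 132 of 14276. EdgeR called 230 of 18395 in the low range, 109 of 18266 without C2, 109 of 18280 without C3 and 340 of 18561 without set C. Of the other listed chaperone genes, 14 had an unadjusted p under 0.05, against 4 with all 21 libraries, 3 in the high range, 8 without set A, 8 without set D, 9 without set E and 7 without set F. Calls among them numbered 1 with DESeq2 (Fkbp4), 1 in the low range (Hspb8), 2 without set C (Fkbp4 and Cryab) and 0 to 2 with each mouse left out (2 without C2, again Fkbp4 and Cryab, and 1 without C3, Fkbp4). Hspb8 and Cryab were named after their values were seen. The MS minus SR difference in score was 0.16 to 0.20 for the members, 0.17 to 0.23 for the ER chaperones and 0.01 to 0.05 for their difference with each mouse left out.

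By Pearson's r, members correlated with the ER score numbered 7, against 0 within SR, 2 within MS and 0 in the high range. The correlation changed sign for Dnajb1 within SR (-0.16), for Hsp90ab1 in the low range (-0.063), and for Hsf1 in the low range (-0.062), in the high range (-0.0031) and without the 2 mice farthest from the median ER score (-0.084). Pairs of members past the threshold numbered 9, against 18 without subtracting condition means, 2 within MS, 15 with all 21 libraries, 18 without the 2 mice farthest from the median of the first gene and 0 in the high range, where Dnajb1 and Hspb1 had an r of -0.12. Causes of these changes were not tested. The high range holds 6 mice. The choroid plexus and vascular terms and the pair correlations were chosen after seeing the data.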
